A study of Homo sapiens and Mus musculus with 66 samples.

Results

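Windows of 100 kb called as lamina-associated at all 5 cell cycle stages of HCT116 cells numbered 1607 of the 30970 windows into which chromosomes 1 to 22, X and Y of the hg19 build were divided, or 5.19%. The windows were chosen by measured calls: a window was taken when it lay wholly inside the region list of each of the 5 stages. They covered 160.7 Mb in 125 stretches of adjoining windows on 19 chromosomes. HCT116 is a human colorectal carcinoma cell line. Cells of the first 2 stages were blocked with nocodazole, a microtubule poison that holds cells in mitosis, for 16 h per the sample labels (the study's methods give a longer block), washed, shaken off and released, and G1 cells were sorted 90 min (90m G1) or 180 min (180m G1) later. Cells of the other 3 stages were sorted from growing cultures, without drug, as G1, S and G2. All 5 used antibody to lamin-B1, horseradish peroxidase and biotin-tyramide, which tags material near the lamina (cTSA-seq, a form of tyramide signal amplification sequencing), with 2 replicates of input and of streptavidin pull-down at each stage.

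The nuclear lamina is a mesh of lamin proteins under the inner nuclear membrane. The chromatin that touches it, in lamina-associated domains (LADs), is mostly poor in genes, rich in A and T and late in replication, and most of its genes are silent. The lamina is taken apart in mitosis and rebuilt as cells enter G1, when chromosomes take up their places beside it again. K562, the line used for comparison, is a human myeloid leukaemia line.

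Each stage was read from 1 list of regions that holds no signal, no depth and no separate replicates. From these lists no test between stages, lines or classes of windows could be made, and all differences given here are descriptions of these lists. Intervals in brackets are 95% Wilson intervals, cover counting over windows alone, and treat neighbouring windows as independent, which they are not. The following classes of windows serve as comparison: 3078 windows in the 180m G1, G1, S and G2 lists and not in the 90m G1 list ("later lists alone"), 2712 windows in the 90m G1 list and in none of the later 4 ("90m G1 alone"), and 19991 windows in no stage list.

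Central bases of 2 of the 1607 windows, those of median and highest GC content, are given as examples. Sequence is hg19, plus strand, 150 bases each, with CpG in capitals. The window of median GC (chr7:147600001-147700000, 39.42%) lay inside CNTNAP2, and both K562 methods called it. The window of highest GC (chr1:4700001-4800000, 52.82%) lay in a stretch of 1.3 Mb that neither K562 method called. Over the whole windows, CpG came to 8.25 and 21.8 per kb in that order. The bases printed are 38 and 64% GC, so 150 bases do not give the composition of a whole window.
Median GC, chr7:147649926-147650075: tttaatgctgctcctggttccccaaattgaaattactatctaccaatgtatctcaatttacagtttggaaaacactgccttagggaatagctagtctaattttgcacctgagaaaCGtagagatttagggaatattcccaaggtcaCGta
Highest GC, chr1:4749926-4750075: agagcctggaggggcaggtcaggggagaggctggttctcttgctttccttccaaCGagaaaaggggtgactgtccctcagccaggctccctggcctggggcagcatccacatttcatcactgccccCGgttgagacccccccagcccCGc

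The longest stretch, 7.7 Mb at chrX:139100001-146800000, held 27 annotated miRNA genes between positions 139486264 and 146366246. It was picked for display after its content was seen. The 1607 windows as a whole held 111 of 3049 annotated miRNA genes. This is 3.641%, below the 5.189% of all windows that the 1607 make up. Of the 27 genes of the longest stretch, 22 were matched by symbol to RefSeq (table of build GRCh38.p14). These 22 gave 26 different mature sequences (35 when each gene copy is counted) with 23 different seeds, bases 2 to 8. The genes AL121875.1, AL080272.1, AL030997.1, AL445258.1 and hsa-mir-892c were not matched by symbol. Of the seeds, 3 were shared by different mature sequences. The examples carry the seed in capitals: miR-514b-3p and miR-514a-3p share 1 seed over 4 genes, miR-509-5p and miR-509-3-5p share 1 over 3 genes, and miR-513c-5p and miR-514b-5p share 1 although their names differ.
miR-514a-3p: aUUGACACuucugugaguaga
miR-514b-3p: aUUGACACcucugugagugga
miR-509-5p: uACUGCAGacaguggcaauca
miR-509-3-5p: uACUGCAGacguggcaaucaug
miR-513c-5p: uUCUCAAGgaggugucguuuau
miR-514b-5p: uUCUCAAGagggaggcaaucau
miR-506-3p: uAAGGCACccuucugaguaga
miR-888-5p: uACUCAAAaagcugucaguca

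The 1607 windows were 30.46% of the 5275 windows of the 90m G1 list, 25.33% of the 6344 of 180m G1, 25.71% of the 6250 of G1, 23.2% of the 6926 of S and 26.0% of the 6180 of G2. These shares describe the selection and nothing more. Just outside it were 3381 windows held by exactly 4 of the lists. The missing list was 90m G1 for 3078 of them, 180m G1 for 168, G1 for 61, G2 for 53 and S for 21. The windows that lacked 90m G1 alone had a mean GC content of 36.81%, and those that lacked 180m G1 alone 43.78%. Among the 250 edges of stretches, 165 (66%) were edges at which 1 list alone ended, most often 180m G1 (45 edges) or 90m G1 (41), and at 20 edges all 5 lists ended together. With edges shared by several lists included, G2 ended at 42% of the edges, G1 at 40.4%, 180m G1 at 36.4%, 90m G1 at 26% and S at 24.8%. At most edges 1 list ended alone, but which list it was varied, with G1 and G2 at 32 edges each and S at 15. A stretch ends by definition where the first of the 5 lists ends, so this describes the selection.

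Stretches had a median length of 0.9 Mb, a mean of 1.286 Mb and a range from 0.1 to 7.7 Mb. Of the 125, 60 were 1 Mb or longer and held 125.4 Mb, which is 78.03% of the total, and 4 were single windows. The 10 longest held 25.64%. Neighbouring stretches on a chromosome lay a median of 3.2 Mb apart, and 7 of the 106 gaps between neighbours were a single window. The 3078 windows of the later lists alone formed 232 stretches, with the same median of 0.9 Mb and a longest of 9.8 Mb.

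The 8 longest stretches differed in gene content, from 0 to 21 protein-coding genes. Genes are counted here when at least 80% of their length lay inside the windows. Genes that lay partly inside, to a smaller extent, are left out. The 7.7 Mb on chromosome X (chrX:139100001-146800000, mean GC 37.71%) held 21 protein-coding genes, among them LDOC1, MAGEC3 of the MAGE cancer-testis family, SLITRK4 and SLITRK2, which are synaptic adhesion proteins, and SPANXN2. The 4.7 Mb on chromosome 10 (chr10:106600001-111300000) held SORCS1, a sorting receptor, and no other protein-coding gene to at least 80% of its length. The 4.3 Mb at chr3:1-4300000, the only one of the 125 to reach a chromosome end, held 7 genes: the contactins CNTN4 and CNTN6, the adhesion protein CHL1, the interleukin-5 receptor subunit IL5RA and LRRN1 were the 5 longest. The 3.9 Mb at chr5:163100001-167000000 held no protein-coding gene to that extent. On chromosome 8, stretches of 3.7 Mb (chr8:136700001-140400000) and 3.4 Mb (chr8:2300001-5700000) held FAM135B and COL22A1, a collagen, and CSMD1, respectively. The 3.5 Mb at chr9:119500001-123000000 held BRINP1, the endotoxin receptor TLR4 and ENSG00000285082. The 3.4 Mb at chr12:127800001-131200000 held 7 genes, of which TMEM132D, TMEM132C, RIMBP2, GLT1D1 and PIWIL1, a piRNA-binding protein of the germ line, were the longest. On chromosomes shown by the study, the longest stretch of chromosome 1 (chr1:238200001-241500000, 3.3 Mb) held the muscarinic receptor CHRM3, RGS7 and FMN2 among others. That of chromosome 18 (chr18:70200001-71600000, 1.4 Mb) held NETO1 and CBLN2. That of chromosome 14 (chr14:98100001-99300000, 1.2 Mb) held no protein-coding gene to that extent, and chromosome 19 had no such window.

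**Figure D1:**
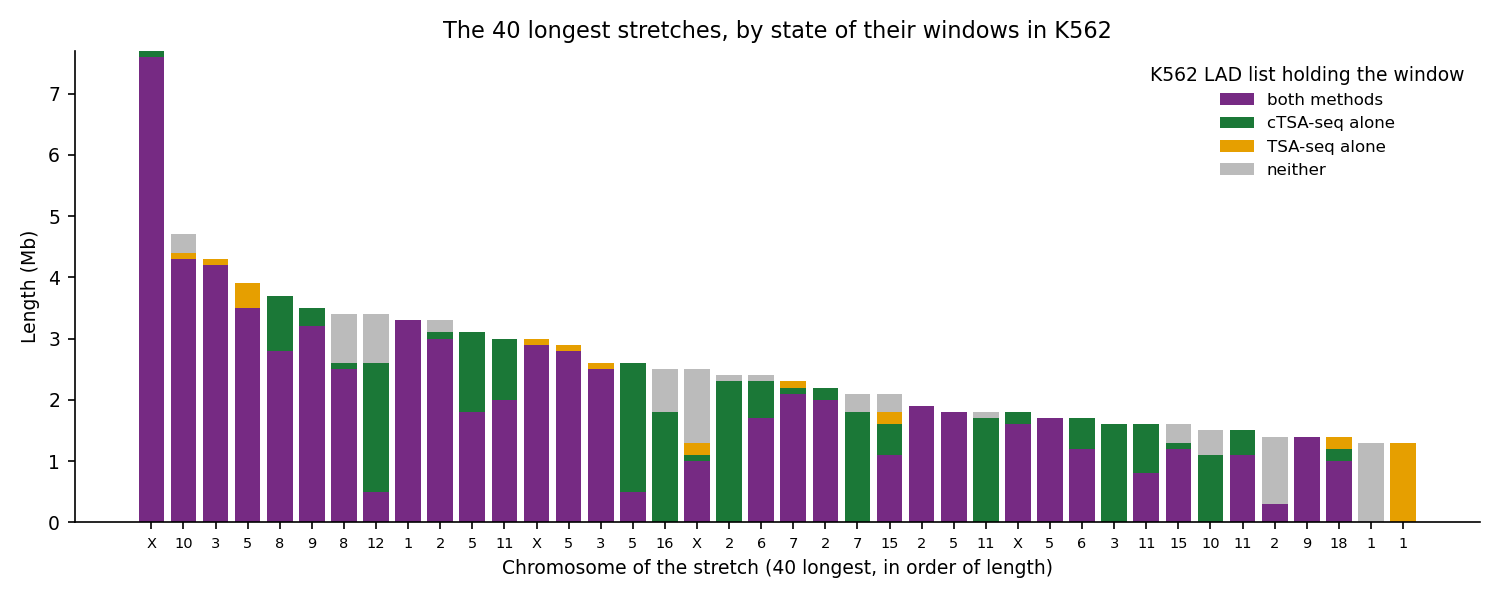
Length in Mb (vertical axis) of the 40 longest stretches, named by chromosome on the horizontal axis, with colours for the K562 list that held each window: both methods, cTSA-seq alone, TSA-seq alone or neither. The longest, of 7.7 Mb on chromosome X, was held by both methods in 76 of 77 windows, whereas the 3.4 Mb on chromosome 12 was held by both in 5 of 34.

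The windows were unevenly spread over chromosomes. Chromosome 5 held the most, 212 windows or 11.71% of its length in windows, and chromosome X held 185 (11.91%). Chromosome 2 held 150, chromosome 3 held 120 and chromosome 1 held 119. At the low end chromosome 13 held 6 (0.521%) and chromosome Y 1. Chromosomes 17, 19, 20, 21 and 22 held none, and on these the 90m G1 list itself held few windows: 28, 0, 20, 0 and 9. Position within a chromosome also differed. On chromosomes 6, 12, 13, 14, 15 and 18 every window lay beyond the midpoint of the chromosome by coordinate, and on chromosome 3, 117 of 120 lay before it. On chromosomes 8 and 9 both sides held windows, 49 before and 64 beyond the midpoint on chromosome 8, and 37 and 35 on chromosome 9.

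**Figure D2:**
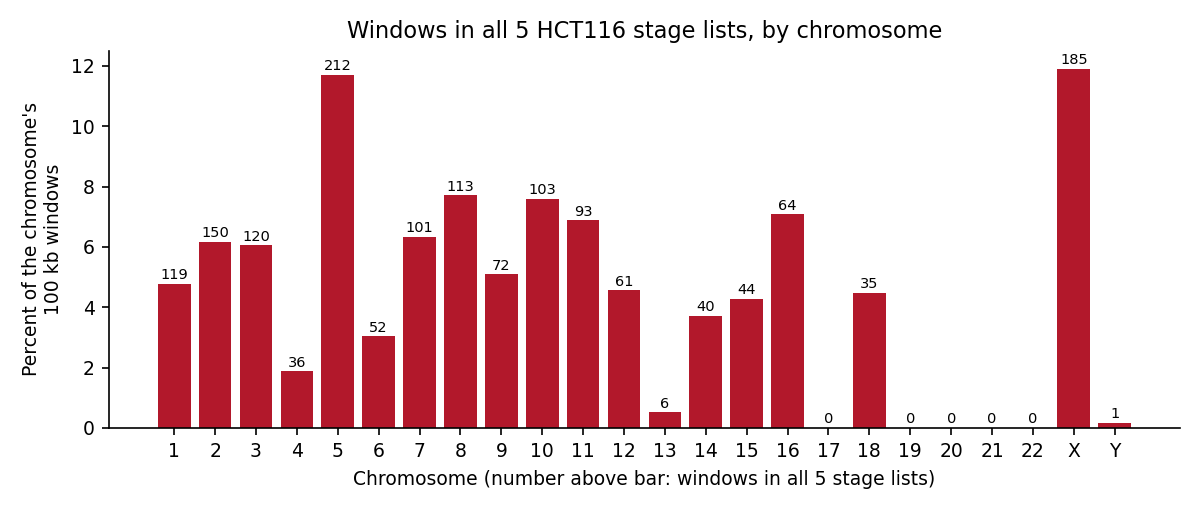
Percent of each chromosome's 100 kb windows (bars, from 0) that were in all 5 stage lists, with the number of windows above each bar. Chromosomes X (11.91%) and 5 (11.71%) stand highest, and chromosomes 17, 19, 20, 21 and 22 have none.

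Most of the windows lay near a chromosome end. Their median distance to the nearer end was 11.3 Mb, beside 40.4 Mb for the later lists alone, 9.8 Mb for 90m G1 alone and 39.82 Mb for windows in no stage list. Within 20 Mb of an end were 73.55% of the windows, and the corresponding shares were 13.32% for the later lists alone, 78.32% for 90m G1 alone and 31.08% for all windows. In position the windows were nearer to those of 90m G1 alone than to those of the later lists alone. Because membership required the 90m G1 list, this position was in part set by the selection. Within 5 Mb lay 20.6% of the windows, 31.49% of those of 90m G1 alone and 0.552% of the later lists alone.

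The windows had a mean GC content of 39.98% (SD over windows 3.12, range 34.11 to 52.82%). The mean was 36.81% (SD 2.04) for the later lists alone, 46.79% (SD 5.20) for 90m G1 alone, 41.05% (SD 4.86) for no stage list and 40.91% over all windows. The windows stood between the other 2 stage classes, and the distributions of all classes overlapped. On each of the 17 chromosomes with at least 20 windows, their mean GC was above that of the later lists alone, for example 38.14 against 36.52% on chromosome 3, 43.29 against 37.22% on chromosome 12 and 38.3 against 36.68% on chromosome X. Against the whole chromosome the mean was lower on 12 of the 17. At matched distance from the end, 10 to 20 Mb, the values were 39.14% (452 windows), 36.81% for the later lists alone (263), 44.92% for 90m G1 alone (746) and 42.47% for no list (2735). The later lists alone were lowest there too. Beyond 40 Mb the 80 windows had 41.27%, above the 39.76% of no list, and the later lists alone 36.77%. GC between 38 and 40% was the bin in which the windows were most frequent relative to all windows, at 8.46% of 5271, against 1.91% of 4041 below 36% GC and 2.19% of 5401 at 45% or above. CpG came to 8.39 per kb in the windows, 6.17 in the later lists alone and 15.7 in 90m G1 alone.

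**Figure D3:**
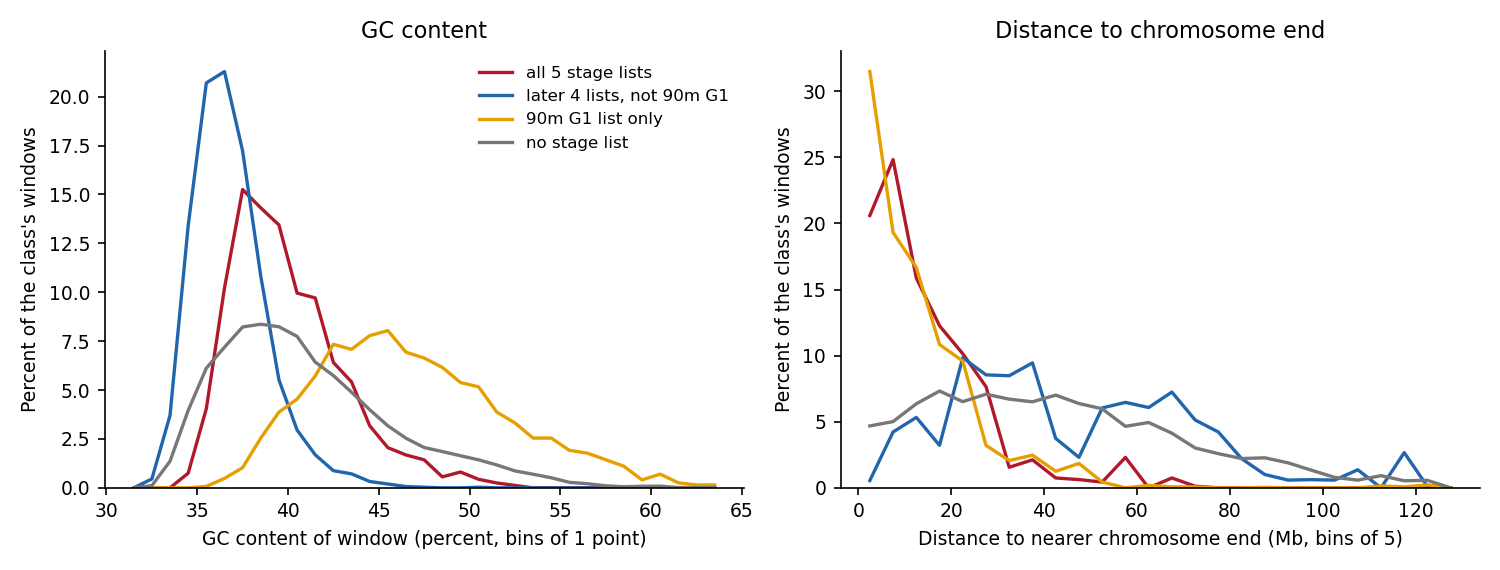
Left, percent of each class's windows (vertical axis) by GC content in bins of 1 point. Right, the same by distance in Mb to the nearer chromosome end in bins of 5 Mb. The line of windows in all 5 stage lists lies between the other stage classes in GC (means 36.81, 39.98 and 46.79%). In distance it lies next to the line of 90m G1 alone (medians 11.3 and 9.8 Mb).

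The lists that played no part in the selection were read next. Bulk HCT116 cells, profiled in separate libraries of the same line, held 1601 of the 1607 windows, 99.63% [99.19 to 99.83], beside 26.9% of all windows. The 6 that it lacked lay in 2 places, 4 at chr2:229400001-229800000 and 2 at chrX:143100001-143300000. The lists from counted cell numbers, of which that of 1000000 cells has 1 pull-down library in the labels and the others 2, held 91.6% with 1000000 cells (all windows 21.2%), 94.71% with 200000 cells (21.9%) and 98.13% with 50000 cells (22.8%). In these 3 lists the later lists alone were held at 98.86, 99.51 and 99.87%, each above the share of the windows of all 5 stages, and the difference was not tested. The 135 windows that the list of 1000000 cells lacked included runs of 0.7 Mb at chr2:1200001-1900000, chr5:168800001-169500000, chr7:131600001-132300000, chr10:132800001-133500000, with TCERG1L, and chr11:112700001-113400000.

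In K562 most of the windows were also listed as LADs, more by cTSA-seq than by the published TSA-seq that the study compared it with. The published TSA-seq used a mouse monoclonal antibody to lamin-B, and cTSA-seq a rabbit antibody to lamin-B1. Method, antibody and experiment therefore cannot be told apart between these lists. The study repeated TSA-seq with the rabbit antibody and reported that most regions found only by cTSA-seq recurred. No list from that repeat was read here. The K562 cTSA-seq list held 1388 windows, 86.37% [84.61 to 87.96], beside 39.6% of all windows. The K562 TSA-seq list held 1047, 65.15% [62.79 to 67.44], beside 33.9%. The list shared by both methods held 62.48%, beside 30.1%, and the list of regions found by cTSA-seq and not by TSA-seq held 13.69% [12.1 to 15.46], beside 6.0%. Regions called depleted by both methods held 4 windows, 0.249%, beside 20.9%. The later lists alone stood at 89.6% for cTSA-seq, 86.84% for TSA-seq and 4.45% for the regions of cTSA-seq only. Between these 2 classes the total cTSA-seq shares lay close together and the TSA-seq shares further apart, and neither gap could be tested. The close cTSA-seq totals averaged differences in both directions. At 10 to 20 Mb from a chromosome end the cTSA-seq shares were 80.75% and, for the later lists alone, 92.4%, and at 20 to 40 Mb 90.43 and 85.6%. The TSA-seq gap kept its direction but varied in size with distance. In the same order of classes, the TSA-seq shares were 59.04 and 68.71% within 10 Mb and 69.91 and 86.69% at 10 to 20 Mb. They were 80.58 and 86.4% at 20 to 40 Mb, and 27.5% (80 windows) and 88.9% beyond 40 Mb. Of 17 chromosomes with at least 20 windows, the cTSA-seq share was below that of the later lists alone on 8 and the TSA-seq share on 14.

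**Figure D4:**
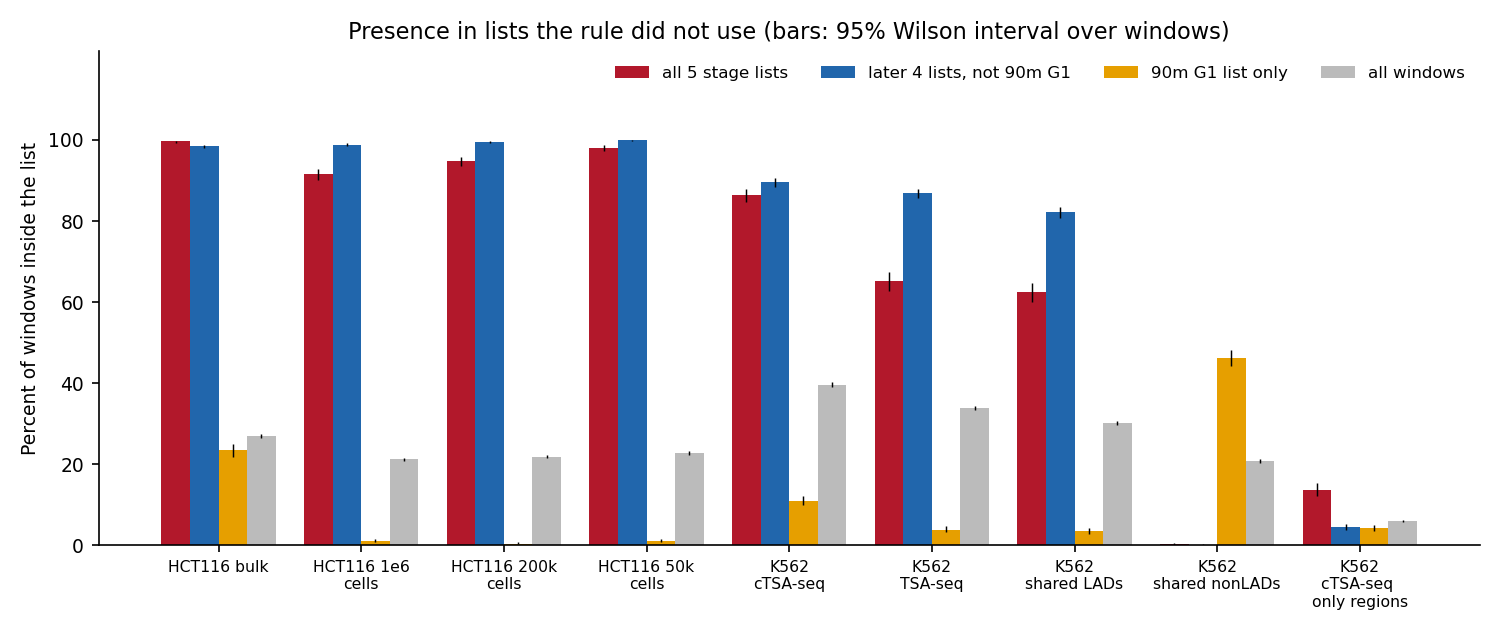
Percent of windows inside each list (bars, from 0) for windows in all 5 stage lists, in the later 4 lists without 90m G1, in the 90m G1 list alone and for all windows, with 95% Wilson intervals over windows. The K562 TSA-seq list held 65.15% of the windows of all 5 stages and 86.84% of those of the later lists alone, against 86.37 and 89.6% in the K562 cTSA-seq list.

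By state in K562 the windows fell into groups of different base composition. Both methods called 1004 windows (62.48%), with a mean GC of 38.45% (SD 1.8), and cTSA-seq alone called 384 (23.9%), with 42.81% (SD 2.44). TSA-seq alone called 43 (2.68%), with 37.44%, and 172 (10.7%) were called by neither and lay outside the depleted regions, with 43.21% (SD 3.8). The 4 windows in depleted regions, also called by neither, had 42.34%. Windows seen by TSA-seq, with or without cTSA-seq, were the poorer in GC. In the later lists alone, windows called by both methods had 36.4%, those of cTSA-seq alone 40.43% and those of neither 38.74%. The 384 windows were counted from the cTSA-seq and TSA-seq lists themselves, and are more than the 220 in the list of regions found by cTSA-seq and not by TSA-seq. The longest runs called by cTSA-seq alone were 2.3 Mb at chr2:800001-3100000, 2 Mb at chr12:128500001-130500000, across TMEM132D, and 1.9 Mb at chr5:2400001-4300000. Across chromosomes with at least 20 windows, the cTSA-seq share ran from 63.93% on chromosome 12 to 97.22% on chromosomes 4 and 9, and was above that of the whole chromosome on 17 of 17. The TSA-seq share ran from 15.62% on chromosome 16 to 91.67% on chromosome 9, and was above that of the chromosome on 15 of 17.

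Long stretches and their inner windows were the more often listed in K562. In stretches of 2 Mb or more (769 windows) 91.94% were in the cTSA-seq list and 73.73% in the TSA-seq list, in those of 5 to 9 windows (284) 80.28 and 51.41%, and in those of 2 to 4 windows (65) 69.23 and 32.31%. At the edge of a stretch (246 windows) the shares were 74.8 and 44.72%, and 6 or more windows from the edge (549) they were 94.17 and 80.15%. Mean GC moved with this, from 41.47% at the edge to 38.93% inside, and the part of GC in the shares was not tested. The HCT116 list of 1000000 cells showed the same order, 78.46% at the edge and 97.81% inside. By whole stretches, 74 of 125 lay fully inside the K562 cTSA-seq list, 34 in part and 17 not at all. The corresponding numbers for TSA-seq were 39, 41 and 45. Stretches of the other classes were not counted in this way, so these numbers have no comparison beside them.

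Some places were called at all 5 stages in HCT116 and not in K562. The longest stretches outside the K562 cTSA-seq list were of 1.3 Mb each. One, chr1:4400001-5700000 (mean GC 46.56%), held AJAP1, a junction protein. Another, chr2:205100001-206400000 (mean GC 38%), held most of PARD3B, a cell polarity protein, and neither K562 method listed any part of that gene. The third, chr1:247600001-248900000, was a cluster of olfactory receptor genes that TSA-seq listed whole and cTSA-seq not at all. On chromosome 8, chr8:600001-1500000 held DLGAP2, a postsynaptic scaffold protein. At chr7:150100001-150500000 all 4 windows were in the K562 list of depleted regions. That stretch held 10 protein-coding genes, among them GIMAP8, GIMAP7, GIMAP4, GIMAP6, GIMAP2, GIMAP1 and GIMAP5, small GTPases of lymphocytes, and TMEM176B. HCT116 bulk cells listed it whole. The HCT116 list of 1000000 cells lacked its last window, chr7:150400001-150500000, and GIMAP1, GIMAP5 and TMEM176B were at 0% in that list. The chromosome 7 stretch was named after its values were seen, as was chr14:106600001-107300000, which neither K562 method listed. The latter lay 0.0495 Mb from the end of chromosome 14 and held 37 of the 47 genes annotated as immunoglobulin variable genes on that chromosome, the heavy chain segments that B cells join.

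The windows held few protein-coding genes. At least 80% of the length lay inside them for 218 of 20162 genes, 1.08%, or 1.357 per Mb, beside 0.991 per Mb in the later lists alone, 10.42 in 90m G1 alone, 7.74 in no stage list and 6.51 over all windows. No protein-coding start lay in 1437 of the 1607 windows (89.42%), beside 64.9% of all windows, and 54 of the 125 stretches held no protein-coding gene to at least 80% of its length. A single stretch set much of this number. The olfactory receptor cluster held 49 of the 218 genes in 1.3 Mb, and without it there were 169, or 1.06 per Mb. Genes of lncRNAs were denser, 735 or 4.57 per Mb, beside 3.11 in the later lists alone and 6.04 over all windows.

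The genes inside were long. Of the 218, 30 (13.76%) were over 500 kb, beside 13.77% in the later lists alone, 0.319% in 90m G1 alone and 1.61% of all protein-coding genes, and the median was 30.35 kb, or 91.88 kb without the olfactory receptor cluster, beside 27.22 kb for all. Of the 12 longest, 11 are given here. They included CNTNAP2 (2305 kb, 94.88% inside), a neurexin relative, DPP6 (1241 kb), which pairs with potassium channels, OPCML (1118 kb) and NTM (966.3 kb), both of the IgLON family, and CDH13 (1174 kb), a cadherin without a membrane span. The others were CSMD1 (2060 kb), a large protein with complement-control repeats, the oxidoreductase WWOX (1113 kb), PARD3B (1075 kb), AGBL1 (969.3 kb), DLGAP2 (969 kb) and ZNF385D (961.1 kb), a zinc finger protein. All 11 lay whole in the HCT116 bulk list.

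In K562 these 11 genes differed from one another. OPCML, AGBL1 and ZNF385D lay whole in both K562 lists. CNTNAP2 lay 99.22% in the cTSA-seq list and 90.54% in the TSA-seq list, and CSMD1 85.09 and 80.23%. WWOX lay 100% in the cTSA-seq list and 0% in the TSA-seq list, CDH13 97.08 and 0%, and DPP6 76.95 and 0%. NTM was at 100 and 62.78%, and PARD3B and DLGAP2 were at 0% in both. Of all 218 genes, 127 lay at least 80% in the K562 cTSA-seq list, beside 11.0% of all protein-coding genes, and 133 in the TSA-seq list, beside 9.21%. Without the olfactory receptor cluster the numbers were 127 (75.15% of 169) and 84 (49.7%), so that the order of the methods turned. All 218 were in the HCT116 bulk list, beside 11.1% of all protein-coding genes. Fewer were in the HCT116 lists from counted cell numbers. From most to fewest cells, these lists held 180 (82.57%), 183 (83.94%) and 197 (90.37%) of the 218 by the same measure. Their shares of all protein-coding genes were not computed, so these counts have no such figure beside them. The lists were also smaller, with 21.2, 21.9 and 22.8% of all windows, beside 26.9% for the bulk list.

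Promoters of the 218 genes were poor in CpG as a group. In the 300 bases from 250 before to 50 after the start, the median was 6 CpG, beside 18 over all protein-coding genes, 5 in the later lists alone and 21 in 90m G1 alone, and 43.12% had 10 or more, beside 66.12% of all. The 45 olfactory receptor genes had a median of 2, and the other 173 genes a median of 11. The letters TATAAA stood on either strand in 18.35% of the promoters, beside 10.86% of all, in 46.67% of those of the olfactory receptor genes and in 10.98% of those of the other 173. A match of letters is a description and not a site. The 250 bases before the start of CNTNAP2 and DPP6, among the longest genes inside, and of the 3 genes with the most CpG, are given 5′ to 3′ on the strand of the gene (hg19, starts from GENCODE), with CpG in capitals. They are shown because genes inside windows called at every stage differed widely in the CpG of their starts. TCERG1L had 53 CpG in its 300 bases, SORCS1 52 and the adenylate cyclase ADCY2 50, and CNTNAP2 19 and DPP6 13.
CNTNAP2, chr7:145812844-145813093, plus strand: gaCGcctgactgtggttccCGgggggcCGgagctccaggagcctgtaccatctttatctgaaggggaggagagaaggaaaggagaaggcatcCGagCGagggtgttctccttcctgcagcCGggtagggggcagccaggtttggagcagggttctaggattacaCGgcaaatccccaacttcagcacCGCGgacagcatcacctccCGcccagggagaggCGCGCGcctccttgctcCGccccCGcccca
DPP6, chr7:153444968-153445217, plus strand: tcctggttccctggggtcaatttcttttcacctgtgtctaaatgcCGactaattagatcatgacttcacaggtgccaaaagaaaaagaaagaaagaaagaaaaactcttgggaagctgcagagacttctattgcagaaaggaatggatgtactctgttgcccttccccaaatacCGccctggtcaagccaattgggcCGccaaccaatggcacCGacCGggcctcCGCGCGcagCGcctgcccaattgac
TCERG1L, chr10:133109985-133110234, minus strand: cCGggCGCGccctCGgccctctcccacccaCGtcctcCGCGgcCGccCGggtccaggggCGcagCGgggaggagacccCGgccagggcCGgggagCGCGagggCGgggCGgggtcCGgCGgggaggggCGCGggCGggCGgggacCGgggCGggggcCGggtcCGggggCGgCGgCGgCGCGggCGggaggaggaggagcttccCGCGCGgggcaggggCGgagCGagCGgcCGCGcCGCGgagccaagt
SORCS1, chr10:108924465-108924714, minus strand: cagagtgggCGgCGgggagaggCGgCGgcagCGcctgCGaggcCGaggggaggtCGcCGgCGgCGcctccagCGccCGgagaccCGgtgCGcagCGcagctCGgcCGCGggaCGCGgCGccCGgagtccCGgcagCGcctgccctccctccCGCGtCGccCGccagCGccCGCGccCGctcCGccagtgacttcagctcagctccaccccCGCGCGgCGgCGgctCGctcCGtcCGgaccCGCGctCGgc
ADCY2, chr5:7396001-7396250, plus strand: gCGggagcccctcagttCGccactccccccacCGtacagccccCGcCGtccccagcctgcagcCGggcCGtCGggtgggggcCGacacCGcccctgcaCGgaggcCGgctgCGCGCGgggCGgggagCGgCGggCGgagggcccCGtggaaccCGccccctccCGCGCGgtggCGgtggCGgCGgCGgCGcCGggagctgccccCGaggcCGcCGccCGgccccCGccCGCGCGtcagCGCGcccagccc

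Of 25 gene lists, 9 had a gene inside the windows, of which 8 are described here, and 16 had none. The lists were chosen with earlier results of these data known. Olfactory receptor genes made up 45 of the 64 listed genes found, of 414 on the list (10.87%, beside 1.08% of all protein-coding genes), and all 45, from OR2B11 to OR14I1, belonged to the 1.3 Mb on chromosome 1. The later lists alone held 70 of the 414, beside 305 of all 20162 protein-coding genes. Of the windows with the most genes, those at chr1:247900001-248000000 (OR14A2, OR14K1, OR1C1, OR9H1P and OR14A16), chr1:248000001-248100000 and chr1:248500001-248600000 held 5 each. In K562 none of the 45 was in the cTSA-seq list and all 45 were in the TSA-seq list. This is 1 cluster, so it counts as 1 place and not as 45.

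Genes of synapses came from several places. Synaptic adhesion genes numbered 7 of 43: CNTN6 and CNTN4 on chromosome 3, CNTNAP2 on chromosome 7, TENM4 on chromosome 11, and NLGN4X, SLITRK4 and SLITRK2 on chromosome X. All 7 were in the K562 cTSA-seq list and 6 in the TSA-seq list, TENM4 being at 0% there. The later lists alone held 9 of the 43 synaptic adhesion genes. The glutamate receptor subunit GRIA1 (1 of 18) and the potassium channel KCNH8 (1 of 40) lay whole in both K562 lists. The MAGE antigens MAGEC3, MAGEC1 and MAGEC2 (3 of 35) lay together on chromosome X, and CDH11 (1 of 13 type II cadherins), TAS2R1 (1 of 27 taste receptors) and ZNF385D (1 of 537 zinc finger genes) were single.

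No gene of the other 16 lists lay inside: clustered protocadherins, glycine receptors, sodium channels, ADAM proteases, keratins, beta-defensins, serpins, UDP-glucuronosyltransferases, type I interferons, HOX genes, ribosomal proteins, histones, lamina and envelope proteins, intestinal genes, erythroid genes and the cell cycle genes that the study named (CDT1, CDK4, CDK6, PCNA, ORC1, ORC6, MCM3, MCM7 and MCM8). The share of all protein-coding genes inside, 1.08%, is the figure beside which these zeros stand.

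**Figure D5:**
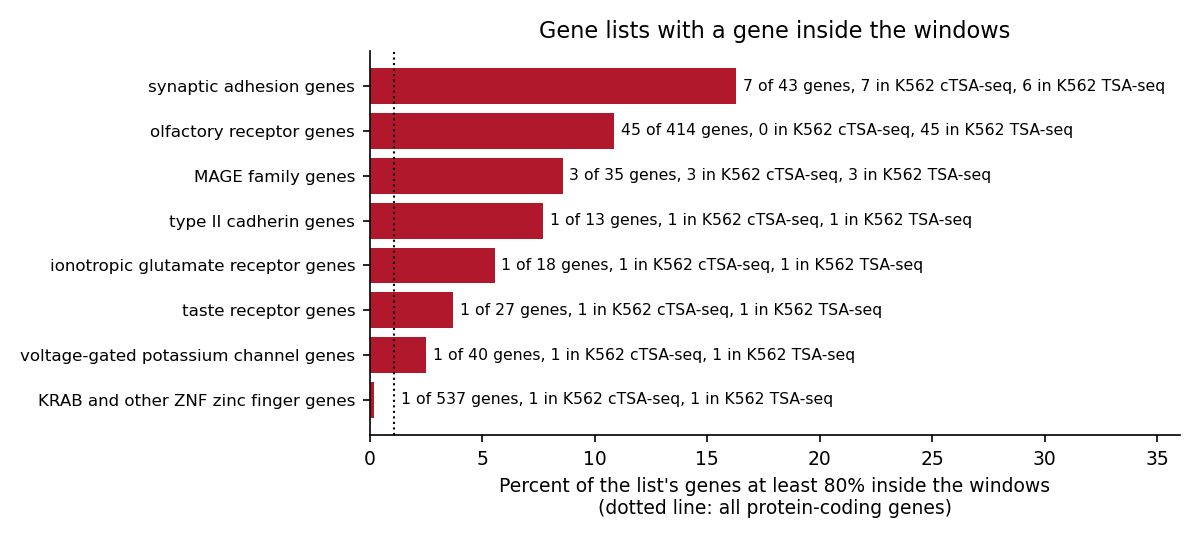
Share in percent (bars, from 0) of each list's genes that lay inside the windows over at least 80% of the gene for 8 lists with such a gene, with counts and the number in each K562 list written beside the bar, and the share of all protein-coding genes, 1.08%, as a dotted line. Among these 8 lists, synaptic adhesion genes (7 of 43) and olfactory receptor genes (45 of 414) stand highest. The later lists alone, not drawn, held 9 and 70 of these genes.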

How the data were processed

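The authors aligned cTSA-seq reads to hg19 with Bowtie (Bowtie2 2.3.2 and bedtools 2.26.0 are named in the submitters' processing notes), removed duplicates, compared pull-down with input as a log2 ratio, standardised it, and fitted a Hidden Markov Model of 3 states, of which the enriched state is listed. Per the study's methods, regions had to be called in each replicate. The lists of G1, S and G2 carry the word consensus, and those of 90m G1 and 180m G1 do not, so the merging of their replicates is uncertain. The deposited values are region starts and ends; no signal or depth comes with them, and precision between experiments is unknown. From these, 14 lists were placed on 100 kb windows, and 2 regions on other sequences were left out. All 36 region ends off the grid equal hg19 chromosome lengths.

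A window belonged to a list when wholly inside it. GENCODE release 44, lifted to hg19, supplied the genes, each counted when at least 80% of it was inside. GC and CpG were read from the hg19 sequence, leaving out gap bases. The members and the gene lists were chosen with earlier results of these data known. Named in the text were the 8 longest stretches and the longest on chromosomes 1, 14, 18 and 19, up to 5 of their longest genes, the 12 longest genes inside, up to 4 genes of each list in order of position (all 7 synaptic adhesion genes were named, 3 of them after their values were seen), the cell cycle genes of the study, and windows of extreme GC or with the most genes. Other places were named after their values were seen. Some genes, a window and a gene list that this rule picks are not reported here. Calculations used Python 3.11.15, pandas 2.3.3, numpy 2.4.6 and scipy 1.17.1, and were tested on simulated lists. SLAM-seq, hTERT-RPE1 and mouse data were not used here.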

Additional observations from a re-analysis of the deposited data

How the results depend on the processing

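No paired analysis was possible because each stage was read from 1 list of regions without separate replicates, and for the same reason no replicate could be left out. Of 310 values under other settings, 285 stayed within 1.5 times (counts), within the 95% interval (shares) or within 1 SD between chromosomes (GC) of the value given. Most of these settings left out a single chromosome. None held more than 13.19% of the windows (chromosome 5), so such values had little room to move. The number 285 is therefore no measure of robustness. Counting windows that lay at least 50% inside changed nothing, since all calls are whole windows. Leaving the 90m G1 list out of the selection gave 4685 windows in 316 stretches, with 88.5% in the K562 cTSA-seq list, 79.4% in TSA-seq, 75.47% in the shared list and 7.62% in the regions of cTSA-seq only. Leaving out 180m G1 gave 59.83, 57.41 and 15.94% for the last 3. Autosomes alone gave 61.93, 59.11 and 15.48%, and leaving out chromosome X 61.88, 59.07 and 15.47%. The share in regions of cTSA-seq only was 12.02% without chromosome 7 and 11.86% without chromosome 16. Without chromosome 7 no window was in the depleted regions (0%), without chromosome 2 the bulk list held 99.86%, and without chromosome 6 the list of 50000 cells held 98.71%. As shares of stretches with at least 1 window inside, depleted regions held 0.8% and regions of cTSA-seq only 23.2%. Mean GC ranged from 39.85 to 40.2% as each chromosome was left out. Genes of all types numbered 1712, or 10.65 per Mb. Leaving out the olfactory receptor cluster, a setting chosen after seeing the data, left 19 listed genes of 64. Depth is unknown and limits what the lists can show.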
